A study of Mus musculus with 9 samples.

Results

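The Schlafen genes of mouse lie side by side on chromosome 11, and 7 of them, Slfn1, Slfn2, Slfn3, Slfn4, Slfn5, Slfn8 and Slfn9, are described here out of 47937 genes with a count in the table. They were selected by their symbols, and the family was proposed because its RNA differed between the genotypes in these same libraries. The differences of the 7 members are therefore given as a description, and where calls of the fit across all genes are listed for them, nothing is read from those calls. RNA-seq was performed on total RNA of mouse embryonic fibroblasts (MEFs), connective tissue cells grown from embryos, in 9 libraries, 3 for each of 3 genotypes. WT cells are the parental line, S1S2 cells are Suv39h1/Suv39h2 KO, and G9Gl cells are G9a/Glp KO, where G9a and Glp are the products of Ehmt2 and Ehmt1. The question was how the loss of each pair of enzymes that methylate lysine 9 of histone H3 (H3K9) changes the RNA of the cells.

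All groups share the genetic background of the parental line. Per the methods of the study, it is a cell clone with a conditional Eset1 allele and a tamoxifen-inducible Cre, and the labels name no tamoxifen treatment. Each mutant is a single clone made from it by CRISPR/Cas9 and picked for the absence of the target proteins, so genotype and clone cannot be told apart. Per the same methods, a Cre construct with puromycin resistance was introduced again after gene disruption, and the lines were kept in puromycin. The labels do not say which of these libraries this covers, and such a difference could not be told apart from genotype. The study's methods describe 3 biological replicates for each cell line. Neither they nor the labels say whether the 3 libraries of a genotype come from separate cultures, and the errors given below measure the spread between these libraries. In bulk RNA, fewer cells that express a gene and less RNA in each cell cannot be told apart.

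Schlafen proteins form a family that vertebrate cells produce in response to interferon and, in mouse, during the development of T cells and macrophages. The short members Slfn1 and Slfn2 consist of the core domain that all members share, the intermediate members Slfn3 and Slfn4 are longer, and the long members Slfn5, Slfn8 and Slfn9 carry a helicase-like part at the C terminus. Several members have been linked to growth arrest, to cleavage or binding of tRNA and to the restriction of viruses. The enzymes removed here write different forms of H3K9 methylation. Suv39h1 and Suv39h2 are known for trimethylation of pericentric heterochromatin, and G9a with Glp for dimethylation in euchromatin, where it is associated with silent genes.

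The libraries held between 21319778 and 32157623 gene counts, and the S1S2 libraries were the 3 smallest. Expression is given as CPM, counts scaled to library size by the TMM factors of edgeR, as mean ± SD of 3 libraries. A floor of 3 counts, between 0.0923 and 0.141 CPM in a library, was taken as the limit of detection, and a fold change against a genotype at or under the floor in its 3 libraries is a lower bound. Floors cover counting error only, because reads that carry no molecular identifier do not each stand for a molecule. As a check of the labels, Suv39h1 was lower in S1S2 (41.9 ± 3.14 CPM against 108 ± 4.59 in WT), and Ehmt2 (54.3 ± 2.82 against 125 ± 9.63) and Ehmt1 (50.2 ± 1.62 against 104 ± 1.78) were lower in G9Gl. Suv39h2 RNA was not lower in S1S2 (55.2 ± 2.34 CPM against 33.9 ± 0.671 in WT). The study picked its Suv39h clone by western blot for the absence of both proteins, which RNA levels do not measure. For Suv39h2 the RNA thus gives no check of the label, and S1S2 below means the libraries labelled so. All 10 fibroblast markers were above the floor in every library, with a sum between 10538 and 12156 CPM in WT, 7960 and 8025 CPM in S1S2 and 8291 and 9187 CPM in G9Gl, ranges that do not overlap. Single markers differed further, such as Col1a2 with 2395 ± 90.9 CPM in WT, 395 ± 11.9 in S1S2 and 2030 ± 77.6 in G9Gl, and Thy1 with 4.98 ± 0.537, 2.05 ± 0.272 and 38.3 ± 2.48 CPM. Of 15 leukocyte markers, Cd68 alone was above the floor in every WT and S1S2 library, and Cd68 and Ly6g were in every G9Gl library. The leukocyte markers summed to between 3.28 and 4.63 CPM in WT and S1S2 and to between 6.88 and 7.36 CPM in G9Gl. The T cell markers Cd3e, Cd3g and Cd8a, the B cell marker Ms4a1 and the macrophage marker Adgre1 had 0 counts in all G9Gl libraries, and Ptprc, which marks all leukocytes, had 2, 2 and 4. Of the myeloid markers, Csf1r had 3, 10 and 8 counts in G9Gl against 1, 1 and 1 in WT and 0, 1 and 0 in S1S2, and Itgax had 2, 3 and 6 in G9Gl, none in WT and 1, 0 and 0 in S1S2. Ly6g, a granulocyte marker, had 53, 72 and 56 counts in G9Gl and at most 4 in the other libraries. The 4 epithelial markers summed to between 4.67 and 5.55 CPM in S1S2 and to at most 0.548 CPM elsewhere. This sum was carried by Krt8, at 4.68 ± 0.512 CPM in S1S2 and 0.139 ± 0.0490 in WT, while Epcam (0.198 ± 0.0969 against 0.266 ± 0.0627) and Cdh1 (0.0121 ± 0.0210 against 0.0415 ± 0.0468) were not higher there and Krt18 had 0, 8 and 3 counts there and none elsewhere. The 4 endothelial markers summed to at most 0.193 CPM in WT, 1.70 CPM in S1S2 and 2.35 CPM in G9Gl. The part of these markers in the results below was not tested.

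The 7 members differed in level by orders of magnitude within the same cells. Slfn9 made up nearly all Schlafen RNA of WT cells, and in G9Gl cells Slfn2 and Slfn8 joined it while Slfn3 and Slfn4 were low but detected. S1S2 cells showed a smaller difference in Slfn8, and Slfn1 and Slfn5 were not detected in any genotype.

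Of the members with no count in WT, the short member Slfn2 had the highest lower bound for G9Gl over WT. This gene (chromosome 11, 83065112 to 83070678, plus strand) encodes a protein known to keep T cells and monocytes quiescent, and mice with a mutant copy lose these cells on activation. Slfn2 had 0 counts in each of the 3 WT libraries, 3, 2 and 4 counts in S1S2, and 423, 323 and 353 counts in G9Gl. The G9Gl libraries did not overlap with the others. In CPM, Slfn2 was at 14.8, 11.6 and 11.5 in the G9Gl libraries, a mean of 12.7 ± 1.90, and at 0.133 ± 0.0578 in S1S2. G9Gl was at least 132-fold higher than WT and 95.2-fold higher than S1S2. The S1S2 mean lay at the limit of detection, and its lower bound over WT was 1.38-fold.

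Slfn1 (chromosome 11, 83116849 to 83122670, plus strand), the other short member, had no count in WT and S1S2 and 3, 1 and 1 counts in G9Gl. All 9 libraries were at or under the floor, so no fold change is given. Slfn1 and Slfn2 lie next to each other and their coding sequences were identical at 71.7% of 1000 aligned bases, but only Slfn2 was detected.

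Slfn3 and Slfn4, the intermediate members, lie at the far end of the cluster. Slfn3 (chromosome 11, 83191330 to 83215154, plus strand) had no count in WT, 1, 0 and 0 counts in S1S2 and 16, 32 and 16 counts in G9Gl. In G9Gl it was at 0.562, 1.15 and 0.522 CPM, at least 7.75-fold over WT and at least 5.75-fold over S1S2. Slfn4 (chromosome 11, 83175186 to 83190216, plus strand), which is known from activated macrophages and myeloid cells, had no count in WT, 0, 0 and 1 counts in S1S2 and 15, 11 and 15 counts in G9Gl. In G9Gl it was at 0.526, 0.395 and 0.490 CPM, at least 4.90-fold over WT and at least 3.63-fold over S1S2. For both genes each G9Gl library was above all WT and S1S2 libraries. Their coding sequences were identical at 92.2% of 1778 aligned bases, so reads could be divided between them. Of the 75-base windows of their transcripts, 1.32% of those of Slfn3 occur in Slfn4 and 1.12% of those of Slfn4 in Slfn3, and 3.73% and 1.34% occur in the neighbour Gm11427.

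The 4 short and intermediate members share a short run of bases in front of their start, shown here because it sets them apart from the long members, whose windows do not hold it. It does not mark the members that were silent in WT, since Slfn5, with 0, 1 and 0 counts there, is among those without it. The 250 bases before the start were taken from the promoter windows of RefSeq on GRCm38.p6. A search made after the sequences had been seen took the longest run common to the 4, so presence in all 4 was fixed by the search. The run found was ACTTCCTGG, and its promoter shares below are a description. It is in capitals, with 20 bases on either side, in the 4 genes, all on the plus strand:
Slfn2 (chr11:83065037-83065085): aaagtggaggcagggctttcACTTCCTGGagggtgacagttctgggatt
Slfn1 (chr11:83116726-83116774): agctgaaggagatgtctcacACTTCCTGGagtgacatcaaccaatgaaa
Slfn4 (chr11:83175093-83175141): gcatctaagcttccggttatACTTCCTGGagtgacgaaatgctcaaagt
Slfn3 (chr11:83191268-83191316): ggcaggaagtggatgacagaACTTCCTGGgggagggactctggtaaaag
The first capital stands at position -55 of Slfn2, -74 of Slfn1, -73 of Slfn4 and -42 of Slfn3, counted from the base before the start as -1. These letters occur, on either strand, in 201 of 27025 promoters, or 0.744%. In Slfn1, Slfn2 and Slfn4 the run goes on for 2 more bases, AG, and the resulting 11 bases occur in 19 promoters, or 0.0703%. Slfn1 carries the run and was not detected in any genotype.

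Among the long members, Slfn8 and Slfn9 are a close pair on the minus strand, and Slfn9 was the most abundant member. Slfn9 (chromosome 11, 82978390 to 82991830) had 2816, 2630 and 3021 counts in WT, 2099, 2798 and 2202 in S1S2 and 5133, 4459 and 5359 in G9Gl. The corresponding values were 86.6, 86.9 and 97.4 CPM in WT, 96.5, 102 and 104 CPM in S1S2 and 180, 160 and 175 CPM in G9Gl. The WT and S1S2 libraries overlapped, and the 3 G9Gl libraries were above all others. Slfn9 was 1.90-fold higher in G9Gl than in WT, with a log2 fold change of 0.93 ± 0.075 (SE), and 1.11-fold higher in S1S2, with a log2 fold change of 0.16 ± 0.063 (SE).

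Slfn8 (chromosome 11, 83002158 to 83020810), a gene studied mainly in T cells and macrophages, had 8, 1 and 10 counts in WT, 26, 29 and 15 in S1S2 and 364, 198 and 283 in G9Gl. The values were 0.246, 0.0331 and 0.322 CPM in WT, 1.19, 1.06 and 0.705 CPM in S1S2 and 12.8, 7.11 and 9.24 CPM in G9Gl. The 3 genotypes did not overlap. Slfn8 was 48.4-fold higher in G9Gl than in WT, with a log2 fold change of 5.55 ± 0.64 (SE), and 4.92-fold higher in S1S2, with a log2 fold change of 2.27 ± 0.63 (SE). Within WT the libraries were spread widely around this low level. Slfn5 (chromosome 11, 82951349 to 82964840, plus strand), the long member at the other end of the cluster, had 0, 1 and 0 counts in WT, the same in S1S2 and 1, 2 and 0 in G9Gl, all under the floor.

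Slfn8 and Slfn9 are shown in front of their start because the close relatives differed so much in level. The coding sequences were identical at 92.7% of 2730 aligned bases, and the 250 bases before the start at 85.1% of 242 aligned bases. The RefSeq sequence on GRCm38.p6 is given on the minus strand, 5′ to 3′, with the core of the interferon-stimulated response element in capitals, that is GAAA, a gap of any 2 bases and GAAA, read here from the opposite strand:
Slfn8 (chr11:83020811-83021060): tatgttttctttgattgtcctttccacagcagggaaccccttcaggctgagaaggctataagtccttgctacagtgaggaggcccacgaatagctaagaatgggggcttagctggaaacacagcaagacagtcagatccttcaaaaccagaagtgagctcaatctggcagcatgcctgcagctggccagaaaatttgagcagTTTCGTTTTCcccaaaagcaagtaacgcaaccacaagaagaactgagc
Slfn9 (chr11:82991831-82992080): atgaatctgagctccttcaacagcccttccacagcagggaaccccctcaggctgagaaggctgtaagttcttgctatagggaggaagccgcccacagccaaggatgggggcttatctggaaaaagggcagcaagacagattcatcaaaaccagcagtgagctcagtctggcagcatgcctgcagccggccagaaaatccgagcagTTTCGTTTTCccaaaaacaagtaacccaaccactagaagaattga
The capitals begin at position -48 in Slfn8 and -45 in Slfn9 and hold the same 10 bases. For Slfn8 the first listed RefSeq window is shown, and another window of this gene places the same bases at position -136. Of the 27025 promoters, 943 hold this core on either strand, or 3.49%. Slfn5 holds it at position -155, and the windows of Slfn1, Slfn2, Slfn3 and Slfn4 do not. The letters of the gamma-activated site, TTCNNNGAA, occur in 2288 promoters, or 8.47%, and in none of the 7 members. Only exact matches to these letters were searched, so variants of either element were not looked for. The part of these elements in the RNA levels was not tested.

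Reads of Slfn8 and Slfn9 can be confused, since 3.68% of the 75-base windows of Slfn8 occur in Slfn9 and 2.62% of those of Slfn9 in Slfn8. More of them, 4.98% and 4.48%, occur in the pseudogene Slfn10-ps. As a description, the counts of Slfn8 were also divided by those of Slfn9 in the same library, which does not bear on shared reads. The ratio of Slfn8 to Slfn9 counts was 0.284%, 0.0380% and 0.331% in the WT libraries, 1.24%, 1.04% and 0.681% in S1S2 and 7.09%, 4.44% and 5.28% in G9Gl. The ratios of the 3 genotypes did not overlap, as the counts of Slfn8 did not. Slfn10-ps (chromosome 11, 83028130 to 83040042, minus strand), which lies between Slfn8 and Slfn2, shares 11.5% of its windows, mostly with Slfn9. It had 38, 29 and 34 counts in WT, 20, 56 and 44 in S1S2 and 271, 237 and 274 in G9Gl, or 1.07 ± 0.107, 1.68 ± 0.656 and 8.99 ± 0.501 CPM. It was higher in G9Gl than in WT by 3.06 on the log2 scale (edgeR adjusted p = 5.29e-10) and was not called in S1S2 (log2 fold change 0.65, adjusted p = 0.0379). The ratio of its counts to those of Slfn9 was 1.19 ± 0.136% in WT and 5.24 ± 0.108% in G9Gl. The part of shared reads in these values was not tested.

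**Figure D1:**
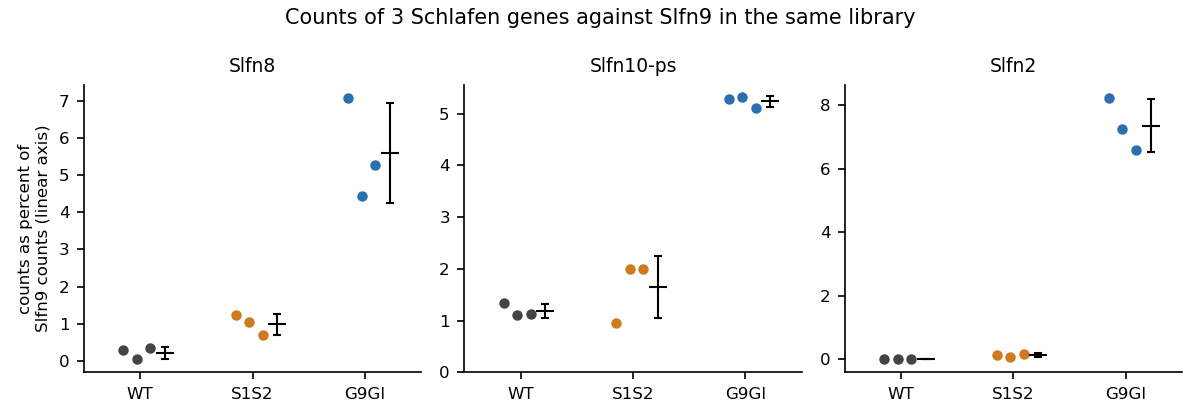
Counts of Slfn8, Slfn10-ps and Slfn2 as a percentage of the Slfn9 counts of the same library (linear axes, separate scales). Points are single libraries and bars are mean ± SD of 3 libraries; in all panels the G9Gl libraries lie above the others, with Slfn8 at 5.60 ± 1.35%, Slfn10-ps at 5.24 ± 0.108% and Slfn2 at 7.36 ± 0.833%.

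To order the members by level, CPM was divided by the exon length of each gene in kilobases. In WT cells Slfn9 stood at 15.1 ± 1.02 CPM per kb and Slfn8 at 0.0490 ± 0.0366 CPM per kb, and the others had at most a single count. Slfn9 made up 99.7 ± 0.208% of the summed level per kb. In S1S2 cells the order was Slfn9 at 16.9 ± 0.622, Slfn8 at 0.241 ± 0.0617 and Slfn2 at 0.0799 ± 0.0347 CPM per kb, with no overlap between libraries of these 3 genes, and the share of Slfn9 was 98.1 ± 0.360%. In G9Gl cells Slfn9 stood at 28.8 ± 1.74, Slfn2 at 7.61 ± 1.14 and Slfn8 at 2.37 ± 0.699 CPM per kb. Their libraries did not overlap, and the shares of the summed level were 73.7 ± 2.46%, 19.4 ± 1.55% and 5.99 ± 1.26%. Slfn3 at 0.218 ± 0.103 and Slfn4 at 0.119 ± 0.0171 CPM per kb followed, from 0.153 to 0.337 and from 0.0997 to 0.133 over the libraries. Slfn1 and Slfn5 were last, and their order rests on 5 and 3 counts in all. Summed over the 7 members, Schlafen RNA came to 90.5 ± 6.20 CPM in WT, 102 ± 3.50 CPM in S1S2 and 195 ± 14.3 CPM in G9Gl.

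Over 15540 tested genes, edgeR called a gene where its p, adjusted by Benjamini-Hochberg, was 0.01 or less and its level differed 2-fold or more. Of the 7 members, 5 entered this test. Slfn1 and Slfn5 were too low, and Slfn2, Slfn3 and Slfn4 passed the filter on low counts only through the G9Gl libraries, so their calls in that mutant carry no further weight. In G9Gl against WT, Slfn2, Slfn3, Slfn4 and Slfn8 were called higher, where 6.77% of all tested genes were called higher and 10.2% in either direction. In S1S2 against WT, Slfn2 and Slfn8 were called higher, beside 4.66% of all genes called higher and 9.0% in either direction. The call of Slfn2 in S1S2, which rests on 9 counts, was lost without WT replicate 1, 2 or 3 and without S1S2 replicate 1 or 3, so that 1 member was then called. Between the mutants, Slfn2, Slfn3, Slfn4 and Slfn8 were higher in G9Gl than in S1S2, beside 7.97% called higher and 13.1% in either direction. Because the members were chosen on these contrasts, nothing is read from these counts. Slfn9 stayed under the fold change limit in all 3 contrasts.

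The remaining Schlafen genes were low. Slfn14 (chromosome 11, 83275110 to 83286726, minus strand) had at most 3 counts in a library, and Slfn5os, which overlaps Slfn5 on the opposite strand, had none. Slfnl1, a Schlafen-like gene on chromosome 4 (120532231 to 120536661), had 8, 7 and 8 counts in WT, 5, 9 and 8 in S1S2 and 16, 7 and 14 in G9Gl. It was called in neither mutant, with log2 fold changes of 0.34 in S1S2 (edgeR adjusted p = 0.553) and 0.78 in G9Gl (adjusted p = 0.121).

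To see how far along the chromosome the difference extended, all genes without a Schlafen symbol within 500 kb of either end of the cluster (chromosome 11, 82951349 to 83215154, GRCm38) were examined, which leaves out Slfn10-ps, Slfn14 and Slfn5os. Of 48 such genes, 22 could be tested. Against WT, 8 were called higher in G9Gl and 0 lower, where 6.77% of all tested genes were called higher, but 3 of the 8 could be tested only because they were high in G9Gl. Without genes of that kind, 5 of 19 neighbours were called higher, or 26.3% against 4.34% of 14875 genes, and the median log2 fold change was 0.34 beside -0.021. In S1S2 1 rose and 2 fell at the same limits, or 13.6% called in either direction against 9.0% of all tested genes, with a fitted median of -0.092, or 0.0019 over the 19 genes that are measured or have a bound, beside -0.0032 over all tested genes.

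The sides of the cluster are described in turn, and no test compared them. On the side of Slfn5, none of the 6 tested neighbours reached a 2-fold change in either mutant, and at 6.77% called higher over all tested genes a count of 0 among so few says little. They include Lig3, a DNA ligase, Rad51d, a recombination factor, and Nle1, a ribosome assembly factor, and their log2 fold changes in G9Gl lay between -0.074 for Lig3 and 0.41 for Rffl. Rffl, Nle1 and Rad51d were slightly higher in G9Gl, by 0.41, 0.38 and 0.30 on the log2 scale (edgeR adjusted p = 0.00408, adjusted p = 0.00220 and adjusted p = 0.00154). Inside the cluster, Gm11425 had 19, 19 and 17 counts in WT, 16, 16 and 24 in S1S2 and 46, 40 and 44 in G9Gl and was called in G9Gl (log2 fold change 1.34, edgeR adjusted p = 3.75e-04). This pseudogene shares 77.4% of its 75-base windows with other genes, Rpl12 among them, so its value is uncertain. Mir7679, inside Slfn9, was not called.

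On the side of Slfn3, 7 of 14 tested neighbours were called higher in G9Gl, among them the 3 that entered the test through that mutant. Over all tested genes 6.77% were called higher, and 4.34% of those that passed the filter outside the mutant. The closest were AI662270, 8.42 kb from the cluster, and Gm11427, 9.30 kb from it, which overlap on the same strand and share windows, so that reads could be divided between them. AI662270 had 2, 1 and 0 counts in WT, 0, 1 and 0 in S1S2 and 80, 78 and 92 in G9Gl, at least 29.9-fold over WT. Gm11427 had no count in WT and S1S2 and 32, 39 and 30 in G9Gl, at least 12.2-fold over WT, and part of its windows occurs in Slfn3 and Slfn4. Both genes passed the filter on low counts only through the G9Gl libraries, as did Ccl6 farther out, so their calls carry no further weight.

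Farther out, the tested genes between Gm11427 and Rasl10b were not called in G9Gl. Ap2b1, a subunit of the endocytic adaptor AP-2, had a log2 fold change of 0.093 in G9Gl. Rasl10b, a small GTPase gene 194 kb from the cluster, had 24, 14 and 9 counts in WT, 11, 12 and 16 in S1S2 and 216, 180 and 218 in G9Gl, 14.2-fold over WT (edgeR adjusted p = 1.95e-10). Beyond it lie chemokine genes. Ccl5, which attracts T cells and is induced by viral infection, was at 1.09 ± 0.104 CPM in WT, 14.3 ± 1.90 in S1S2 and 10.3 ± 2.07 in G9Gl, and was called in both mutants (adjusted p = 1.70e-11 and 8.25e-11) and not between them.

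Ccl9, a monocyte chemokine, moved in opposite directions, from 4.94 ± 0.117 CPM in WT to 0.150 ± 0.0632 in S1S2 and 25.6 ± 2.20 in G9Gl. E230016K23Rik, a gene that overlaps Ccl6 on the opposite strand, did the same, from 0.726 ± 0.0924 CPM in WT to 0.0981 ± 0.0465 in S1S2 and 4.32 ± 0.694 in G9Gl. Ccl6 had 4, 4 and 0 counts in WT, 0, 2 and 0 in S1S2 and 18, 19 and 33 in G9Gl, so it too entered the test only through G9Gl. Whether strand was used in counting is not stated, so reads of such overlapping pairs may not have been kept apart.

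**Figure D2:**
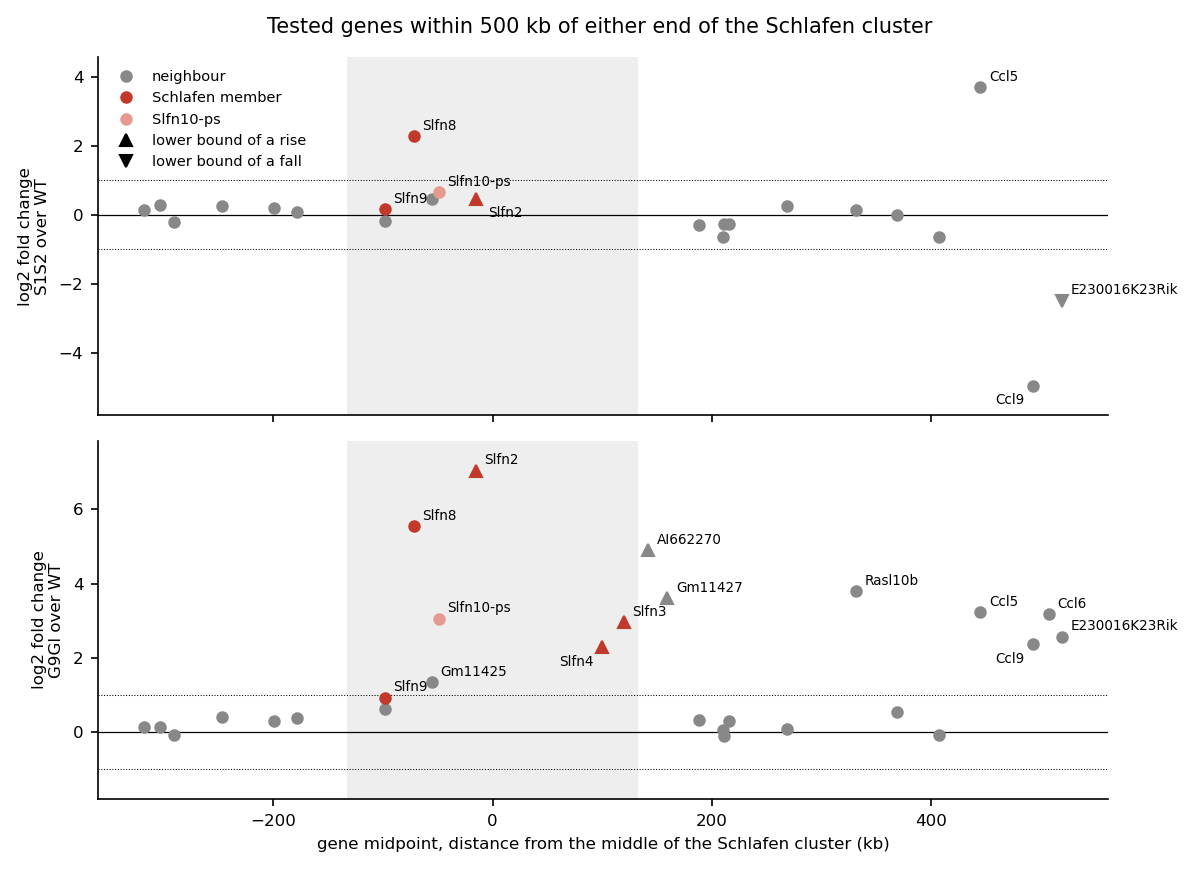
log2 fold change over WT of tested genes against the distance of the gene midpoint from the middle of the Schlafen cluster (kb), in S1S2 (top) and G9Gl (bottom). Grey shading spans the cluster, dotted lines mark a 2-fold change, circles are fitted values and triangles are lower bounds for genes at or under the floor in a genotype; genes with no bound are left out. In G9Gl the genes past the 2-fold line are Schlafen genes, Gm11425 inside the cluster and genes to its right as far as E230016K23Rik, while the 6 genes to the left lie between -0.074 and 0.41.

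Since Schlafen genes respond to interferon, 42 interferon-stimulated genes outside the family were examined, and all could be tested. The list was chosen with earlier results of these data known, so its calls are given as a description. In G9Gl 37 were called higher and 1 lower, with a median log2 fold change of 2.46. Of the same genes, 27 rose and 0 fell in S1S2, the median being 1.73. The share called higher was 88.1% in G9Gl and 64.3% in S1S2, beside 6.77% and 4.66% of all tested genes. Between the mutants, 18 were higher and 6 lower in G9Gl than in S1S2, with a median of 0.70. That is 42.9% called higher and 57.1% in either direction, beside 7.97% and 13.1% of all tested genes. The medians over all tested genes were -0.0067, -0.0032 and 0.00016, and placing the 3 genes at the floor in WT at their bound left the list medians at 2.46 and 1.73.

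By mean CPM over the 9 libraries, the 4 most abundant genes were Eif2ak2, Ifit2, Ifitm3 and Ddx58. Eif2ak2, the kinase PKR that stops translation on double-stranded RNA, was at 93.9 ± 1.44 CPM in WT, 100.1 ± 2.56 in S1S2 and 147 ± 12.2 in G9Gl. Ifitm3, which blocks virus entry, was at 62.3 ± 4.34, 70.6 ± 3.62 and 115 ± 11.3 CPM. Both stayed under the 2-fold limit and were not called, though higher in G9Gl than in WT. Their log2 fold changes there were 0.65 (edgeR adjusted p = 1.37e-08) for Eif2ak2 and 0.89 (adjusted p = 5.72e-09) for Ifitm3. Ddx58, the RNA sensor RIG-I, was at 45.3 ± 4.12 CPM in WT, 73.4 ± 2.30 in S1S2 and 109 ± 15.7 in G9Gl. It was called in G9Gl (edgeR adjusted p = 8.83e-10) and was higher by under 2-fold in S1S2 (log2 fold change 0.70, adjusted p = 2.57e-06). Ifit2, which inhibits translation, was called in S1S2 (52.5 ± 3.18 CPM in WT, 153 ± 6.42 in S1S2, adjusted p = 3.65e-13). In G9Gl it was lower than in S1S2 (75.9 ± 4.18 CPM, adjusted p = 3.99e-11) and higher than in WT by under 2-fold (log2 fold change 0.53, adjusted p = 3.69e-07). This ranking pools the genotypes and passes over Ifi27 and Ifit1, which are named after their values had been seen. Ifi27, at 11.9 ± 1.40 CPM in WT, 18.9 ± 1.53 in S1S2 and 152 ± 8.52 in G9Gl, had the highest mean of the list in G9Gl, close to that of Eif2ak2. Ifit1 was at 10.4 ± 0.930, 91.3 ± 7.32 and 43.1 ± 8.89 CPM.

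Upstream of these genes, 13 interferon receptors and signal transducers, a list chosen with the same knowledge, were all tested. In G9Gl 2 were called higher and 0 lower, with a median log2 fold change of 0.25, and in S1S2 1 was higher and 0 lower at these limits, the median being 0.32. These are 15.4% and 7.69% of the list, beside 6.77% and 4.66% of all tested genes called higher. The 2 genes were Irf7 and Irf9, named after their values had been seen, and Irf7 was the gene called in S1S2. Irf7, a transcription factor that interferon itself induces, was at 1.78 ± 0.444 CPM in WT, 8.57 ± 1.43 in S1S2 and 22.5 ± 5.64 in G9Gl. Irf9, which binds the interferon-stimulated response element as part of a complex, was at 17.1 ± 1.23, 25.8 ± 1.19 and 59.7 ± 8.14 CPM. By mean CPM over the 9 libraries, the most abundant genes of the list were the kinase gene Jak1, the transcription factor gene Irf1 and the receptor genes Ifngr1 and Ifnar1, none of them called. Ifngr1 was nevertheless higher in G9Gl, at 135 ± 4.62 CPM against 80.5 ± 4.12 in WT (edgeR adjusted p = 4.17e-10), and Irf1 in S1S2, at 163 ± 2.27 CPM against 97.5 ± 5.27 (adjusted p = 4.02e-10), both under 2-fold. Jak1 was at 158 ± 0.650 CPM in WT, 197 ± 3.77 in S1S2 (log2 fold change 0.32, adjusted p = 2.57e-06) and 147 ± 3.01 in G9Gl (-0.10, adjusted p = 0.0390). Ifnar1, a chain of the type I interferon receptor, was at 72.4 ± 0.999, 66.2 ± 2.41 and 61.7 ± 2.83 CPM. Of 13 interferon genes, 9 had no count in any library, and no library held more than 6 counts of any of them. Expression of the interferon genes was thus not detectable at this depth, or close to that limit, in every genotype.

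**Figure D3:**
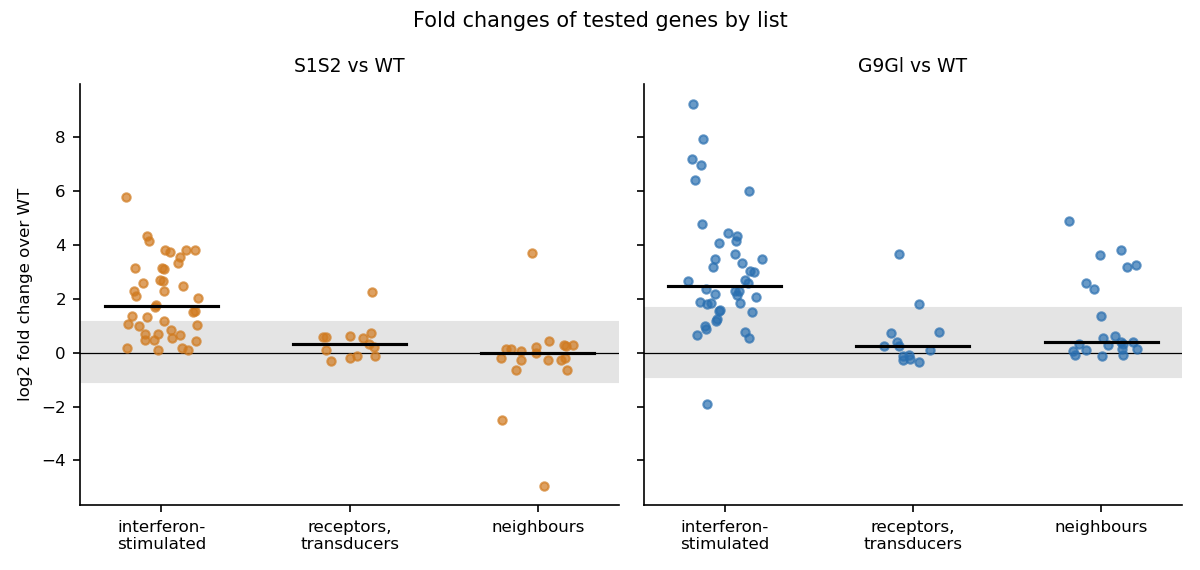
log2 fold change over WT of the tested interferon-stimulated genes (42), interferon receptors and signal transducers (13) and neighbours of the Schlafen cluster, in S1S2 (left) and G9Gl (right). Points are genes, placed at their bound where a genotype is at the floor and left out where there is no bound; bars are medians, the band spans the 5th to 95th percentile of all 15540 tested genes and the line is their median. The interferon-stimulated genes have medians of 1.73 in S1S2 and 2.46 in G9Gl; the band shows the spread of single genes and is no yardstick for a median.

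The genes with the pattern most like each tested member were found by the root mean square difference of log2 CPM, computed with a prior count of 2 and centred on the gene mean over the 9 libraries. For Slfn9 they were Pcbp3, Ifitm3 and Dtx3l, at 0.0615, 0.0666 and 0.0674 log2 units. For Slfn8 they were Ifi203, Serpinb6b and 3830403N18Rik, at 0.373, 0.439 and 0.492. Slfn2 was matched by Tgtp1, Afp and Glipr1, at 0.471, 0.498 and 0.539. Slfn3 was matched by Prl2a1, Nfkbid and Lrrc4c, at 0.250, 0.260 and 0.262, each with no count in WT and S1S2, and Slfn4 by H2-Q4, H2-M3 and Irgm2, at 0.182, 0.227 and 0.242. For genes as low as Slfn3 and Slfn4 the prior count compresses the scale, so that a gene such as H2-Q4, at 7.58 CPM in WT, can come close to one with no count there. Of these 15 genes, Tgtp1 and Irgm2 lie on chromosome 11.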

How the data were processed

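RNA-seq counts of 9 MEF libraries were used, 3 each of WT, S1S2 and G9Gl, grouped by the labels. The authors deposited whole-number read counts for each Ensembl gene, without normalization. Per the study's methods and the submitters' processing notes, they prepared stranded total RNA libraries, trimmed reads with cutadapt, used STAR 2.5.2b for alignment to GRCm38 and counted genes and repeats with TEtranscripts, which shares multiply aligned reads among genes, so close Schlafen copies are uncertain. It was assumed that these methods also describe the libraries used here. The annotation release and the strand setting are not given in the sources used here. Of 47937 genes, 47310 were matched by identifier to GENCODE M21, which gave symbols, positions and exon lengths, and 627 were not. All columns were used.

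Counts were filtered with filterByExpr and fitted by edgeR 4.0.16 (R 4.3.3), whose quasi-likelihood test was used, with TMM factors (0.981 to 1.03) and all 9 libraries in 1 fit. Self-tests on simulated counts preceded the fit. Counts of called neighbours were also taken over genes that reached the filter level in at least 3 of the 6 libraries outside the mutant. SEs come from log2 CPM with a prior count of 2. DESeq2 1.42.0, other normalizations, filters and thresholds, a replicate block and the removal of each library were tried. Libraries held 21319778 to 32157623 counts, so the floor of 3 counts is 0.0923 to 0.141 CPM. Replicates differed by more than counting noise (chi-square per degree of freedom from 2.59 to 24.5), and none was counted as a duplicate. Sequences came from RefSeq promoters of GRCm38.p6, which held all 7 members, and identities from GENCODE M21 coding sequences aligned with Biopython 1.88.

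Members and lists were chosen with earlier results of these data known. Named genes are the members, other Schlafen genes, tested neighbours within 500 kb, the 4 most abundant tested genes of each interferon list, the 3 genes most like each tested member, and the targeted genes. Outside this rule, single cell type markers, genes that moved in opposite directions in the mutants (Samd9l among them) and Irf7, Irf9, Ifi27 and Ifit1 were named after their values had been seen. Values of some genes are not reported here.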

Additional observations from a re-analysis of the deposited data

Results flagged for a closer look

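A gene near the cluster or on an interferon list was marked for a closer look where the mutants differed from WT in opposite directions, both at an adjusted p under 0.01, and the direct comparison of the mutants called the difference. Ccl9 was lower in S1S2 (log2 fold change -4.94) and higher in G9Gl (2.38), and the difference between the mutants was 7.32 on the log2 scale (edgeR adjusted p = 1.04e-15). Its counts were 163, 151 and 149 in WT, 3, 6 and 2 in S1S2 and 664, 722 and 848 in G9Gl. E230016K23Rik, close to Ccl9, had 23, 25 and 20 counts in WT, 3, 3 and 1 in S1S2 and 112, 109 and 157 in G9Gl, with a difference between the mutants of 5.38 (adjusted p = 1.76e-10) that is fitted against a genotype at the floor. In linear terms it was at least 33.4-fold higher in G9Gl than in S1S2. Samd9l, an interferon-stimulated gene on chromosome 6, went the other way, from 24.3 ± 2.6 CPM in WT to 69.3 ± 3.79 in S1S2 and 6.53 ± 0.170 in G9Gl, a difference of -3.41 on the log2 scale. No Schlafen member moved in opposite directions in the mutants.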

How the results depend on the processing

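The numbers of genes called were 1398 in S1S2 and 1580 in G9Gl against WT and 2028 between the mutants. A minimum of 10 counts in every library left 728, 682 and 962, and 1 member, Slfn9, to test. With a limit of 0.05 on the adjusted p alone, edgeR gave 7599, 7138 and 8288 genes. At that limit, 3, 5 and 5 members were called in the 3 contrasts, Slfn9 being the addition each time, and 8, 13 and 16 neighbours of the cluster and 11, 11 and 9 receptors and transducers were called, and 38 interferon-stimulated genes between the mutants. Over genes that passed the low-count filter outside the mutant, a setting chosen after seeing the data, 5 neighbours were called in G9Gl. With each library left out in turn, 1296 to 1458, 1515 to 1654 and 1981 to 2166 genes were called. Members called went from 1 to 2 in S1S2 and stayed at 4 in the other contrasts; neighbours went from 3 to 4 in S1S2, 8 to 8 in G9Gl and 6 to 8 between the mutants; interferon-stimulated genes from 26 to 29, 37 to 38 and 22 to 26.

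Same-numbered libraries did not deviate from their genotype means together (correlation from -0.0686 to 0.124, over 0.1 in 2 of 9 pairs), so the numbers were not taken as pairs. A replicate block gave 1383, 1568 and 2022 genes and the same number of called members in each contrast.

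Under the remaining settings the number of called members did not change, except that a fit of WT and S1S2 alone tested 2 members, Slfn8 and Slfn9, and called Slfn8. Over all settings the log2 fold change in G9Gl over WT ranged from 0.89 to 0.99 for Slfn9 and from 5.08 to 6.04 for Slfn8. Slfn3 and Slfn4 have 1 count in S1S2, and their fitted change there fell to 0 without the library that holds it. Depth limits Slfn1, Slfn5 and the S1S2 values of Slfn2, Slfn3 and Slfn4, which lie at or near the floor. The causes of these shifts were not tested.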
